A study of Mus musculus with 235 samples.

Results

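Gene expression in the ventral CA1 field (vCA1) was compared with that in the ventral dentate gyrus (vDG) in tissue punches of vehicle-treated mice, so that genes of the pyramidal and the granule cell layer could be read at baseline. The comparison used the 29 vehicle libraries of these regions among the 235 libraries of the series. There were 14 libraries of vCA1 and 15 of vDG, and 14 animals gave both. The study punched 8 brain regions of 3-month-old male C57Bl/6 mice, of which 15 received saline as vehicle and 15 received the synthetic glucocorticoid dexamethasone, as a dose of 10 mg per kg. All 30 mice were injected into the peritoneum, and their brains were taken 4 h later. The other groups used below are the vCA1 and vDG punches of the 15 dexamethasone mice (30 libraries) and the dorsal CA1 (dCA1) and dorsal dentate (dDG) punches of the vehicle mice (30 libraries). Each library came from 1 punch of frozen tissue. Nothing was sorted, and a punch of a cell layer also takes in neuropil, interneurons, glia and vessels.

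Information enters the hippocampus through the dentate gyrus, whose densely packed granule cells send mossy fibres to CA3. CA3 pyramidal cells project to CA1, and CA1 pyramidal cells carry the output to the subiculum, cortex, amygdala and other targets. Granule cells depend on the homeobox factor Prox1 for their identity, fire sparsely, and are joined by new neurons throughout life. CA1 pyramidal cells are known for strong synaptic plasticity that depends on NMDA receptors and calcium-activated kinases. In bulk tissue, fewer cells of a type and less RNA per cell cannot be told apart, which holds for every difference given below.

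The median library held 773532 counts (range 314375 to 1110771), and 3 counts in a library correspond to 2.58 to 9.98 CPM, counts scaled to a common library total of 1000000. RNA integrity (RIN) was 6.69 ± 1.18 in vCA1 and 6.29 ± 0.968 in vDG (SD, 14 animals, two-sided permutation test p = 0.223, adjusted over 5 library measures 0.371). Mitochondrial genes took 7.81% of counts in vCA1 and 6.82% in vDG, higher in vCA1 in 11 of 14 animals (p = 0.0114, adjusted 0.0568). Both regions were present on each of the 4 library plates and each of the 5 punching dates. Only replicates 1 and 8 had their vCA1 and vDG libraries on the same plate, so the contrast within the other animals crosses plates. Single libraries stood apart in markers of other tissue. Summed choroid plexus markers reached 1929 CPM in vCA1 replicate 11 and 1236 CPM in vDG replicate 11, and summed oligodendrocyte markers reached 17334, 15915 and 11383 CPM in vDG replicates 14, 5 and 13. Summed blood markers were highest in vDG replicate 5, at 2011 CPM. Among vCA1 libraries, replicate 15 had the lowest sum of CA1 pyramidal markers (1493 CPM) and the highest sum of thalamic markers (657 CPM). Replicate 14 of vDG has no vCA1 partner and is not in the fit. Without replicate 5, 11, 13 or 15 the main count of calls given next was 756, 796, 789 or 1001.

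In the 14 vehicle animals, 868 of 9141 genes tested (9.5%) differed between vCA1 and vDG at an adjusted p under 0.05 (edgeR quasi-likelihood test with the animal as a block). Of these, 505 (5.52% of genes tested) were higher in vCA1 and 363 (3.97%) were higher in vDG. With no filter on low counts the split was 720 and 722, and with upper-quartile scaling it was 454 and 404. Most differences were modest. The median absolute log2 fold change of the called genes was 0.55, and 99 (1.08% of genes tested) differed at least 2-fold, 36 of them higher in vCA1 and 63 higher in vDG. Of the 868 genes, 635 had the same direction in at least 12 of the 14 animals and 773 had the same direction within each of the 4 plates. These genes were called from the same libraries, so the counts describe the spread and are not separate support. Values within a plate are means over its libraries, mostly of different animals. Of the 21 libraries on plates 1 to 3, 12 came from the 6 animals with both regions there, and a fit of these 12 alone gave 134 calls. The count was 8 when the level of meningeal markers entered as a covariate, a level whose ranges in vCA1 and vDG do not overlap.

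**Figure D1:**
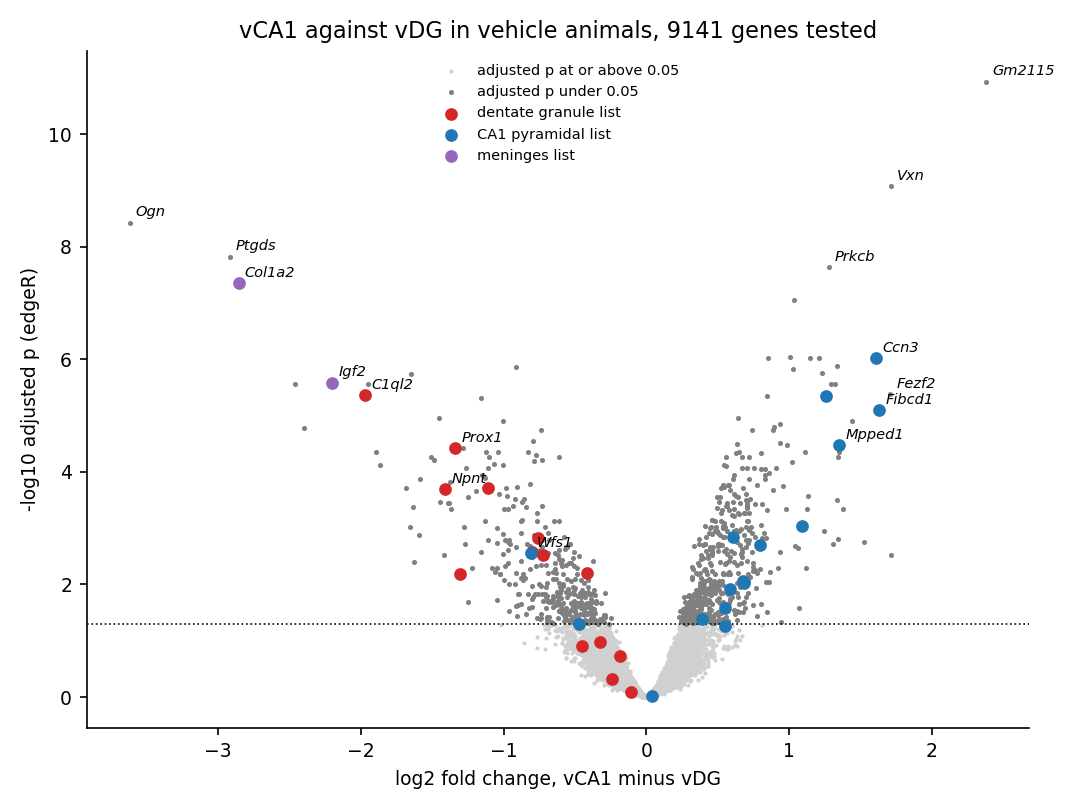
Log2 fold change of vCA1 over vDG in vehicle animals (x axis) against −log10 of the adjusted p (y axis) for all genes tested, with genes named in the text labelled. The 505 genes called higher in vCA1 lie to the right and the 363 called higher in vDG to the left, and the largest absolute changes, Ptgds at −2.92 among them, are on the vDG side.

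The labels were first read against genes that define the cell layers. Of the 22 listed granule cell genes, 14 passed the filter on low counts. Of these 14, 9 were called (64.3%, against 9.5% of all genes tested), all higher in vDG. The median log2 fold change of the 14 was −0.74, against −0.02 over all genes tested. The summed level of the list was 1267 to 3353 CPM in vDG and 994 to 1618 CPM in vCA1, and was higher in vDG in 12 of 14 animals. Dsp, Glis3, Il16, Lct, Ntf3, Pla2g4e, Tdo2 and Trpc6 were too low to be tested.

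Prox1 (ENSMUSG00000010175, chr1:190118035-190170714, minus strand, mm10) encodes the homeobox factor that sets and keeps granule cell identity. It stood at 125.3 to 572.6 CPM in vDG (median 191.1) and at 44.0 to 160.5 CPM in vCA1 (median 103.2). The ranges overlapped, although 13 of 14 animals had the higher value in vDG. The means were 262 ± 139 CPM in vDG and 102 ± 38.7 CPM in vCA1 (SD, n = 15 and 14), a log2 fold change of −1.34 (SE 0.19 and adjusted p = 3.77e-05).

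C1ql2 (ENSMUSG00000036907, chr1:120340582-120343174, plus strand) encodes a C1q-like protein that granule cells release at mossy fibre synapses, where it gathers kainate receptors. Its level was 24.5 to 187.9 CPM in vDG (median 67.0) and 4.42 to 41.6 CPM in vCA1 (median 21.0). This was the widest separation among the granule cell genes, with a log2 fold change of −1.97 (SE 0.24 and adjusted p = 4.38e-06), higher in vDG in 13 of 14 animals. Npnt, an extracellular matrix ligand of integrins, had a log2 fold change of −1.41 (SE 0.23 and adjusted p = 2.00e-04). Plk5, a polo-like kinase, had −1.31, and its highest value of all was in a vCA1 library at 105.5 CPM while the vCA1 median was 8.55 CPM. Rfx3, a transcription factor of the regulatory factor X family, had −1.11. The other calls were Stxbp6 at −0.80, Ahcyl2 at −0.76, Tiam1 at −0.72, an activator of the GTPase Rac, and Smad3 at −0.41, a signal carrier of TGF-beta receptors.

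The other 5 tested granule cell genes were not called. Calb1, the calcium buffer calbindin, had a log2 fold change of −0.11, Akap7 −0.18, Fam163b −0.24, Igfbp5 −0.32 and C1ql3 −0.45 (adjusted p = 0.122). Calbindin is also made by superficial CA1 pyramidal cells.

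The CA1 pyramidal list held 19 genes (Ccn3 was entered also under its former symbol Nov). All 19 were in the table and 16 were tested. Of these 16, 13 were called (81.25%, against 9.5% of all genes tested), 12 higher in vCA1 and 1 higher in vDG. The median of the 16 was 0.64. The summed level was higher in vCA1 in 14 of 14 animals, at 1493 to 3034 CPM in vCA1 and 995 to 2009 CPM in vDG.

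Fibcd1 (ENSMUSG00000026841, chr2:31813290-31846005, minus strand), a membrane receptor for acetylated sugars and glycosaminoglycans that marks CA1 pyramidal cells, stood at 15.0 to 135.2 CPM in vCA1 (median 55.8) and at 0 to 58.3 CPM in vDG (median 13.3). Every animal had the higher value in vCA1, and the log2 fold change was 1.63 (SE 0.20, adjusted p = 8.10e-06). Mpped1 (ENSMUSG00000041708, chr15:83779467-83858494, plus strand), a metallophosphoesterase, lay between 209.6 and 436.9 CPM in vCA1 (median 264.9) and between 31.4 and 215.2 CPM in vDG (median 114.6). The groups overlapped only between 209.6 and 215.2 CPM, and 14 of 14 animals had more in vCA1 (log2 fold change 1.35, SE 0.19, adjusted p = 3.40e-05).

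Ccn3, a secreted matricellular protein, stood at 60.8 to 289.3 CPM in vCA1 (median 193.8) and at 15.4 to 196.2 CPM in vDG (median 69.3), a log2 fold change of 1.61 (SE 0.17 and adjusted p = 9.62e-07). Man1a, a mannosidase of the Golgi, had 1.26 (SE 0.15). Both were higher in vCA1 in every animal. The remaining calls were the transcription factor Pou3f1 at 1.09, the bHLH factor Neurod6 at 0.79, the LIM-only factor Lmo3 at 0.69, the inositol trisphosphate kinase Itpka at 0.68, Etv1 at 0.61, Dkk3 at 0.59, Crym at 0.55 and the receptor kinase Tyro3 at 0.39. Spink8, a serine protease inhibitor gene used as a CA1 marker, fell below the filter in these animals. It had 5.68 to 64.9 CPM in vCA1 and 0 to 11.2 CPM in vDG, with the higher value in vCA1 in 14 of 14 animals.

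Wfs1 (ENSMUSG00000039474, chr5:36966104-36989205, minus strand) encodes wolframin, a membrane protein of the endoplasmic reticulum widely used as a marker of CA1 pyramidal cells. It went against its list. The level was 17.4 to 80.1 CPM in vCA1 (median 36.8) and 20.5 to 163.3 CPM in vDG (median 59.2), higher in vDG in 12 of 14 animals (log2 fold change −0.81, SE 0.17, adjusted p = 0.00278). Dcn, the proteoglycan decorin, had 0.55 (adjusted p = 0.0537) and Lypd1 −0.47 (adjusted p = 0.0504), and neither passed the threshold.

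**Figure D2:**
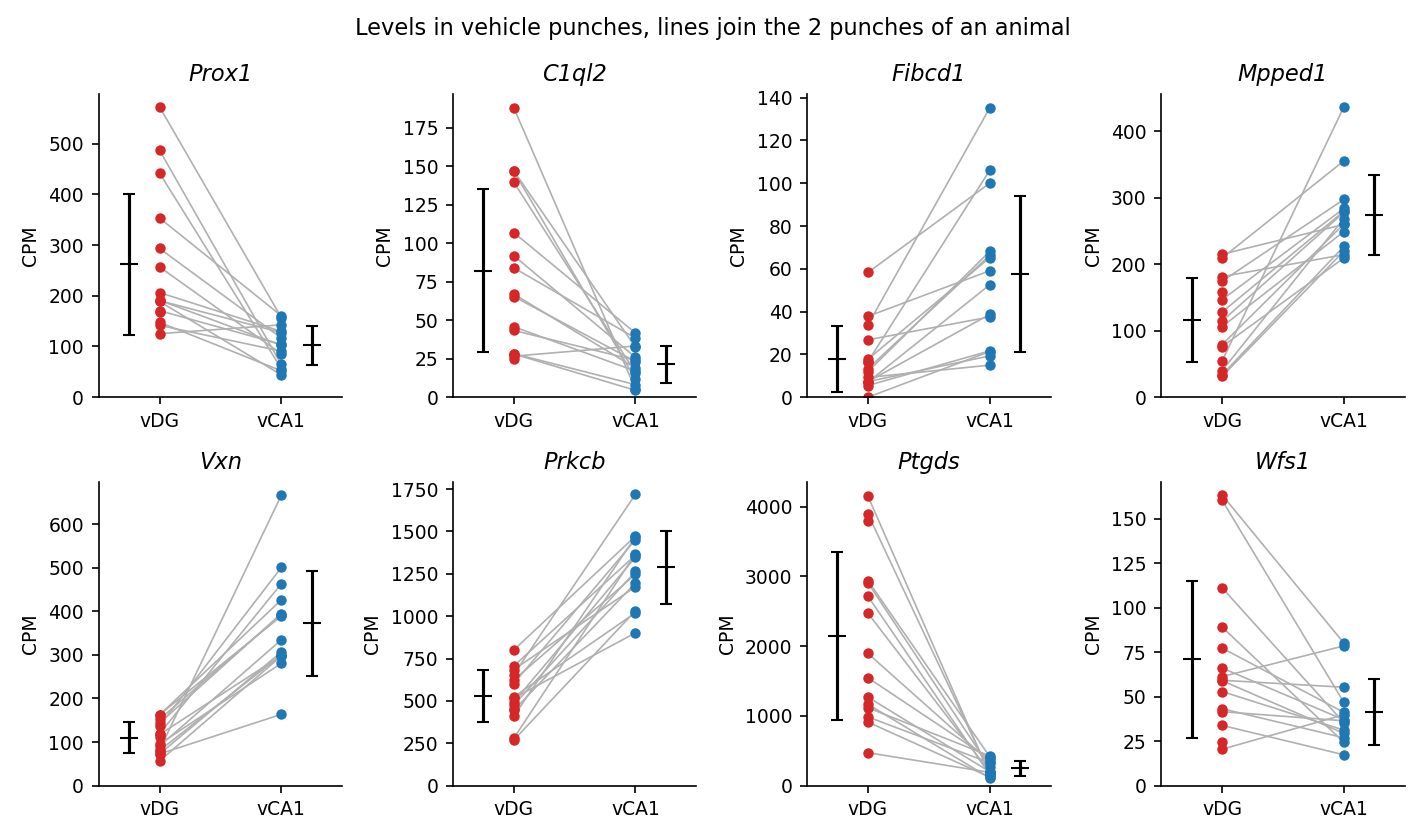
TMM-scaled CPM of 8 genes in vCA1 and vDG of vehicle animals, with 1 point per library, a line joining the punches of each animal, and bars for mean ± SD (n = 14 vCA1 and 15 vDG libraries). Prox1, C1ql2, Ptgds and Wfs1 slope toward vDG in most animals, Fibcd1, Mpped1, Vxn and Prkcb slope toward vCA1 in all 14, and the values of Vxn, Prkcb and Ptgds do not overlap between regions.

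The groups did not overlap at all for 11 of the 868 genes (0.12% of genes tested). Those higher in vCA1 were Gm2115, Vxn, Sh3rf1, Prkcb, Zdhhc2 and Gnao1, and those higher in vDG were Ogn, Ptgds, Igf2, Slc6a20a and Edil3. They were singled out after their values were seen.

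Gm2115 (ENSMUSG00000097789, chr7:84528954-84583531, plus strand), a gene known by its model number, had the highest fold change toward vCA1. Its level was 68.2 to 301.6 CPM in vCA1 (median 149.9) and 11.9 to 49.1 CPM in vDG (median 29.0), a log2 fold change of 2.38 (SE 0.13 and adjusted p = 1.16e-11). Vxn (ENSMUSG00000067879, chr1:9601199-9627143, plus strand) encodes vexin, a protein described in neuronal differentiation. It stood at 163.6 to 666.3 CPM in vCA1 (median 361.9) and at 56.6 to 162.7 CPM in vDG (median 111.7), with a log2 fold change of 1.71 (SE 0.12 and adjusted p = 8.41e-10). The lowest vCA1 library was above the highest vDG library by less than 1 CPM.

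Prkcb (ENSMUSG00000052889, chr7:122288751-122634402, plus strand), a protein kinase C isoform switched on by calcium and diacylglycerol, ran from 901.8 to 1719 CPM in vCA1 (median 1306) and from 268.6 to 800.6 CPM in vDG (median 516.3). This amounted to a log2 fold change of 1.28 (SE 0.11 and adjusted p = 2.27e-08). Sh3rf1, a scaffold and ubiquitin ligase of the JNK pathway, had 106.6 to 297.0 CPM in vCA1 and 35.9 to 97.3 CPM in vDG, a log2 fold change of 1.34. The palmitoyltransferase Zdhhc2 had 1.03, and Gnao1, the G protein alpha subunit abundant in brain, had 0.37 with little spread within either region.

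The 15 genes with the largest changes toward vCA1 by the rule used here ran from Cplx3 at 1.72 to Bmp3 at 1.31, and 7 of them were higher in vCA1 in all 14 animals. Cplx3 and Bmp3 were near the level of 3 counts in vDG and passed the filter on low counts in only 3 and 4 of the 14 fits that left 1 animal out, so the size of their fold changes, and their place in this order, is uncertain. Besides Vxn, Fibcd1, Ccn3, Mpped1 and Sh3rf1 they included Cplx3, a complexin of the synaptic vesicle release machinery, at 26.5 ± 19.8 CPM in vCA1 and 6.98 ± 6.76 CPM in vDG (SD, n = 14 and 15). Fezf2, a zinc finger factor of deep-layer cortical projection neurons, had a log2 fold change of 1.71 (SE 0.20 and adjusted p = 4.16e-06) and was higher in vCA1 in every animal. Nr4a2, an orphan nuclear receptor found in subicular and deep cortical neurons, had 288 ± 114 CPM in vCA1 and 113 ± 53.0 CPM in vDG, a log2 fold change of 1.34. Also in this group were the neurexin ligand Nxph3 at 1.53, the receptor phosphatase Ptpru at 1.44, the heparan sulphate enzymes Hs3st4 at 1.35 and Ndst4 at 1.34, the histamine receptor Hrh3 at 1.33, the vesicle priming factor Cadps2 at 1.32 and the growth factor Bmp3.

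The 15 with the largest changes toward vDG ran from Ogn at −3.62 to Zic1 at −1.63, and 8 were higher in vDG in all 14 animals. Several are known from leptomeninges and perivascular cells. Ptgds (ENSMUSG00000015090, chr2:25466709-25470046, minus strand) encodes prostaglandin D synthase, which meningeal and choroid plexus cells secrete into cerebrospinal fluid. Its level was 472.9 to 4153 CPM in vDG (median 1896) and 111.3 to 427.6 CPM in vCA1 (median 198.8), a log2 fold change of −2.92 (SE 0.24 and adjusted p = 1.51e-08). Ogn (ENSMUSG00000021390, chr13:49608071-49624500, plus strand), the matrix proteoglycan osteoglycin, had 6.35 to 40.5 CPM in vDG (median 24.7) and 0 to 6.33 CPM in vCA1 (median 1.58), where 4 libraries had no count. Its vCA1 values are at the level of 3 counts, and it passed the filter on low counts in the fit of all 14 animals but in none of the fits that left 1 animal out, so the size of its fold change is uncertain and does not rank it above Ptgds. The fibrillar collagen Col1a2 had a log2 fold change of −2.86 (SE 0.25), the growth factor Igf2 −2.20 (SE 0.25), myocilin (Myoc) −2.46, osteopontin (Spp1) −2.40, the matrix Gla protein Mgp −1.90 and the proline transporter Slc6a20a −1.65.

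The other vDG genes of this group included the synaptic vesicle protein Sv2c at −1.95, C1ql2, the matrix protein Smoc2 at −1.63, Sned1 at −1.87, Ranbp3l at −1.68, Igsf1 at −1.66 and Zic1 at −1.63. Ranbp3l and Igsf1 passed the filter on low counts in only 9 and 10 of the 14 fits that left 1 animal out. The size of their fold changes is therefore uncertain. Zic1, a zinc finger factor of septal, cerebellar and meningeal cells, was spread widely, from 37.8 to 993.6 CPM in vDG and from 11.1 to 1168 CPM in vCA1, where the median was 30.0 CPM. The vCA1 value of 1168 CPM belonged to replicate 15. The call of Zic1 was lost without the animal block, with plates 1 to 3 and with the meningeal covariate. Exons of Sned1 share 19.5% of their bases with Mterf4 on the other strand, and whether counting used strand is not given in the sources used here.

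Markers of cells outside the neuronal layers were read beside these genes. All 7 listed meningeal genes were in the table, 2 were tested (Col1a2 and Igf2) and both were called higher in vDG. Their summed level was 105 to 597 CPM in vDG and 27.6 to 94.6 CPM in vCA1, higher in vDG in 14 of 14 animals with no overlap, and no listed gene was at 0 throughout a region. Since the ranges do not overlap, an effect of region and one of meningeal tissue in the punch cannot be told apart in these genes. With the meningeal level as a covariate, 764 of the 868 genes kept their direction. The log2 fold change was then −1.27 (SE 0.41, adjusted p = 0.346) for Prox1, −1.98 (SE 0.53, adjusted p = 0.208) for C1ql2 and 1.67 (SE 0.44, adjusted p = 0.199) for Fibcd1, close to the values without it but with larger errors. Other layer genes did move, with Lmo3 at −0.0435, Itpka at −0.0662, Neurod6 at 0.12, Crym at 0.16 and Plk5 at −0.40. Of the 140 calls of listed or named genes that were followed singly, 137 were lost with this covariate. Igf2 and Col1a2 are part of the summed level used as the covariate, so their values under it say nothing about them. Ptgds, which is not in that list, was at −1.24 and lost its call. Gm2115 (2.43, adjusted p = 1.91e-04), Vxn (1.20, adjusted p = 0.0363) and Cadps2 stayed called among the genes named here.

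The counts of called cell markers that follow stand beside 9.5% of all genes. Of 4 vessel wall genes tested, 2 were called, both higher in vDG, namely Acta2 of smooth muscle at −1.25 (adjusted p = 0.0206) and Vtn of pericytes at −0.71 (adjusted p = 0.0146). The summed level of the list was higher in vDG in 7 of 14 animals, and the call of Acta2 was lost under DESeq2 (adjusted p = 0.125) and without replicate 3 or 12 (adjusted p = 0.0536 and 0.0576). Both calls were lost with plates 1 to 3 (Acta2 at −0.0717 and Vtn at −0.27), and both signs turned with the meningeal covariate (1.36 and 0.38, neither called). No gene was called among 10 oligodendrocyte, 4 oligodendrocyte precursor, 7 endothelial, 2 choroid plexus and 4 blood genes tested. Of 10 astrocyte genes only Gjb6, connexin 30, was called, at −0.69, and of 8 microglial genes only the receptor P2ry12, at 0.57. Both counts are near the share over all genes, and the call of P2ry12 was lost under 7 of 26 alternatives, RIN as a covariate and the removal of any 1 of 3 animals among them. None of the 6 tested genes of newborn neurons and progenitors was called, and their median was 0.03.

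Markers of neighbouring neurons moved in both directions. Calb2 (calretinin), a marker of mossy cells and some interneurons, had 21.8 to 113.4 CPM in vDG (median 58.0) and 8.31 to 97.4 CPM in vCA1 (median 16.5), a log2 fold change of −1.44 (SE 0.25 and adjusted p = 3.48e-04). Calcrl, the receptor for CGRP and another mossy cell marker, had −0.60 (call lost without any 1 of 6 animals), and Drd2 had no count in any of the 29 libraries. Of 9 tested CA2 and CA3 genes, Rgs14, a brake on plasticity in CA2, was called higher in vCA1 at 0.62 (call lost without any 1 of 8 animals), and Amigo2 at −0.89 and the kainate receptor gene Grik4 at −0.50 were higher in vDG. The call of Amigo2 was lost under 4 of 25 alternatives, the fit without the animal block and RIN as a covariate among them. Of 9 subicular and cortical genes, Fezf2, Rspo2 at 0.62 and the neuropeptide Nts at 0.94 (adjusted p = 0.0464, and up to 0.105 with 1 animal left out) were higher in vCA1, and Tshz2 at −1.05 and Cux2 at −0.86 were higher in vDG. Tshz2 shares 65.2% of its exon bases with Gm26883 and 2.25% with A630075F10Rik, both on the other strand and with no count in the 29 libraries. Slc17a6, the vesicular glutamate transporter of subcortical neurons, was the only thalamic marker called, at −0.91. Of 14 interneuron genes tested, 3 were called (21.4%, against 9.5% of all genes), Npy at 0.67 and Cnr1 at 0.51 higher in vCA1 and Pvalb at −0.76 higher in vDG. The call of Pvalb was lost under 13 of 26 alternatives, among them DESeq2, the plate and RIN terms, the fit without the animal block, the removal of any 1 of 6 animals and the meningeal covariate, with which its sign also turned (0.45). The part of these neighbouring cells in the other differences was not tested.

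Genes of neuronal function were then counted by list, each against the 9.5% of all genes that were called. Of the 140 calls followed singly, 31 were lost when 1 animal or another was left out, most of them with an absolute log2 fold change under 0.7. Of the same 140, 92 of 134 tested were lost with plates 1 to 3, 26 of 139 without animals with a RIN under 5, 23 without the animal block and 22 with RIN as a covariate. Beside the genes whose losses are given with their values, the 31 include Adgrl1, Adgrl2, Cacna1g, Cntnap2, Crym, Efnb3, Epha5, Flrt1, Nrp1, Ntng1, Plxna2, Rspo2, Tenm2 and Tyro3. Among 34 neuronal transcription factors tested, 7 were called higher in vCA1 and 4 higher in vDG, with a median of 0.11. Beside Pou3f1, Neurod6, Lmo3 and Etv1, the vCA1 side included Bcl11b, which is needed for projection neuron differentiation, at 0.82 and Foxp1 at 0.35. The vDG side held Prox1, Rfx3, Smad3 and Nr2f2 (COUP-TFII), a nuclear receptor of caudal and ventral forebrain neurons, at 115.6 ± 31.6 CPM in vCA1 and 210 ± 68.1 CPM in vDG (log2 fold change −0.83, adjusted p = 4.48e-05).

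Calcium binding and signalling genes gave 17 calls among 37 tested, with 13 higher in vCA1 and 4 higher in vDG and a median of 0.19. Their summed level was higher in vCA1 in 14 of 14 animals. Rasgrp1, a Ras activator that responds to calcium and diacylglycerol, stood at 158.2 to 400.6 CPM in vCA1 (median 289.6) and at 43.3 to 185.4 CPM in vDG (median 90.2), a log2 fold change of 1.29 (SE 0.15 and adjusted p = 2.76e-06). Prkcb, described above, was among them at 1.28. Itpr1, the calcium release channel gated by inositol trisphosphate, had 0.98. The calcium sensors Hpcal4 and Hpca had 0.89 and 0.71.

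Camk2a, the kinase subunit central to synaptic potentiation, had 2482 to 6517 CPM in vCA1 (median 4041) and 1224 to 3767 CPM in vDG (median 2511), a log2 fold change of 0.70 (SE 0.15 and adjusted p = 0.00219). Its regions overlapped, with the higher value in vCA1 in 13 of 14 animals. Among the smaller called differences were Camkv at 0.70, Itpka, neurogranin (Nrgn) at 0.41, Plcb1 at 0.30 and Calm2 at 0.29. The last 3 of these calls ended without any 1 of 6, 10 and 8 of the 14 animals, with an adjusted p of up to 0.111 for Plcb1. On the vDG side were Calb2, Pvalb, Hpcal1 at −0.64 and Camk2g at −0.32, so that the alpha and gamma subunits of this kinase were called in opposite directions.

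Among ionotropic glutamate receptor genes, 3 of 15 tested were called. The AMPA subunit Gria3 at 0.39 and the kainate subunit Grik5 at 0.36 (adjusted p = 0.0454) were called higher in vCA1, and Grik4 was called higher in vDG. The call of Grik5 was lost under 19 of 26 alternatives, 11 of them the removal of 1 animal, and those of Gria3 and Grik4 under 5 each. Metabotropic receptors gave 1 call each way among 7. Grm2, which damps release at mossy fibre terminals, was at −0.92 (SE 0.16, adjusted p = 3.05e-04) and higher in vDG in 14 of 14 animals, and Grm3 was at 0.47. GABA receptor genes gave 3 calls among 13, all higher in vCA1. These were Gabra3 at 0.83, Gabrg3 at 0.72 and Gabra5, the alpha subunit of extrasynaptic receptors that is enriched in hippocampal pyramidal cells, at 0.63 (170 ± 45.2 CPM in vCA1 and 104 ± 34.5 CPM in vDG).

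Voltage-gated potassium channel genes gave 4 calls higher in vCA1 and 5 higher in vDG among 34 tested. The vCA1 side held the beta subunit Kcnab2 at 0.72, the ether-à-go-go channel Kcnh3 at 0.67, the BK channel subunit Kcnmb4 at 0.61 and the SK channel Kcnn2 at 0.48. The vDG side included the fast Kv3 family members Kcnc1 at −0.55 and Kcnc4 at −0.48, with Kcnip4 at −0.50 and Kcna1 at −0.40. The call of Kcna1 was lost under 15 of 26 alternatives, among them the removal of any 1 of 10 animals, and that of Kcnip4 under 5, so that the count on the vDG side rests partly on them. Kcnmb4 shares 20.8% of its exon bases with Kcnmb4os2 and 10.7% with Kcnmb4os1, both on the other strand. Of 13 other potassium and cation channel genes, 4 were called. Trpc4, a cation channel of the transient receptor potential family, was higher in vCA1 at 0.67, and the inward rectifiers Kcnj2 (11.7 ± 3.71 CPM in vCA1 and 22.6 ± 9.71 CPM in vDG, adjusted p = 0.00125) and Kcnj9 at −0.51 were higher in vDG. Sodium and calcium channel genes gave 5 calls among 25, with Cacna1g at 0.69, Cacnb3 at 0.62 and Cacnb1 at 0.40 higher in vCA1, and Cacna1c at −0.64 and Scn1a at −0.36 higher in vDG.

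Steroid, monoamine and cholinergic receptor genes were low, and 13 of 36 were tested. The muscarinic receptor Chrm3 at 0.80 (adjusted p = 4.59e-05, 14 of 14 animals) and the adrenergic receptor Adra2c at 0.68 were among the 3 called, all higher in vCA1. The call of Adra2c was lost under 5 of 21 alternatives, DESeq2 and RIN as a covariate among them. It passed the filter on low counts in only 10 of the 14 fits that left 1 animal out. The glucocorticoid receptor gene Nr3c1 was at 0.16 and the mineralocorticoid receptor gene Nr3c2 at 0.33, neither called. Of 17 neuropeptide and secreted factor genes, Nts and Npy were higher in vCA1, and Igf2, C1ql2 and Wnt5a at −0.69 higher in vDG.

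Cell adhesion and axon guidance genes gave 11 calls higher in vCA1 and 9 higher in vDG among 53, with a median of −0.01. The guidance ligand Sema3e at 0.96, the cadherin Cdh11 at 0.71 and the netrin-G1 gene Ntng1 at 0.63 led the vCA1 side. Cdh9, a cadherin of the mossy fibre synapse between granule and CA3 cells, was at −0.97 (SE 0.20, adjusted p = 0.00178), Sema5a at −0.94, Nectin1 at −0.80, Unc5d at −0.75, the semaphorin receptor Nrp2 at −0.64 and Flrt3 at −0.62. Of 11 tested activity-dependent genes, Egr4 at 0.74, Homer1 at 0.68, Arc at 0.63 and Nr4a1 at 0.50 were called higher in vCA1, and Jun at −0.73 and Btg2 at −0.48 higher in vDG. Of these, the calls of Arc, Btg2 and Nr4a1 ended without any 1 of 10, 9 and 8 animals, and all of these calls were also lost without the animal block and with RIN as a covariate.

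**Figure D3:**
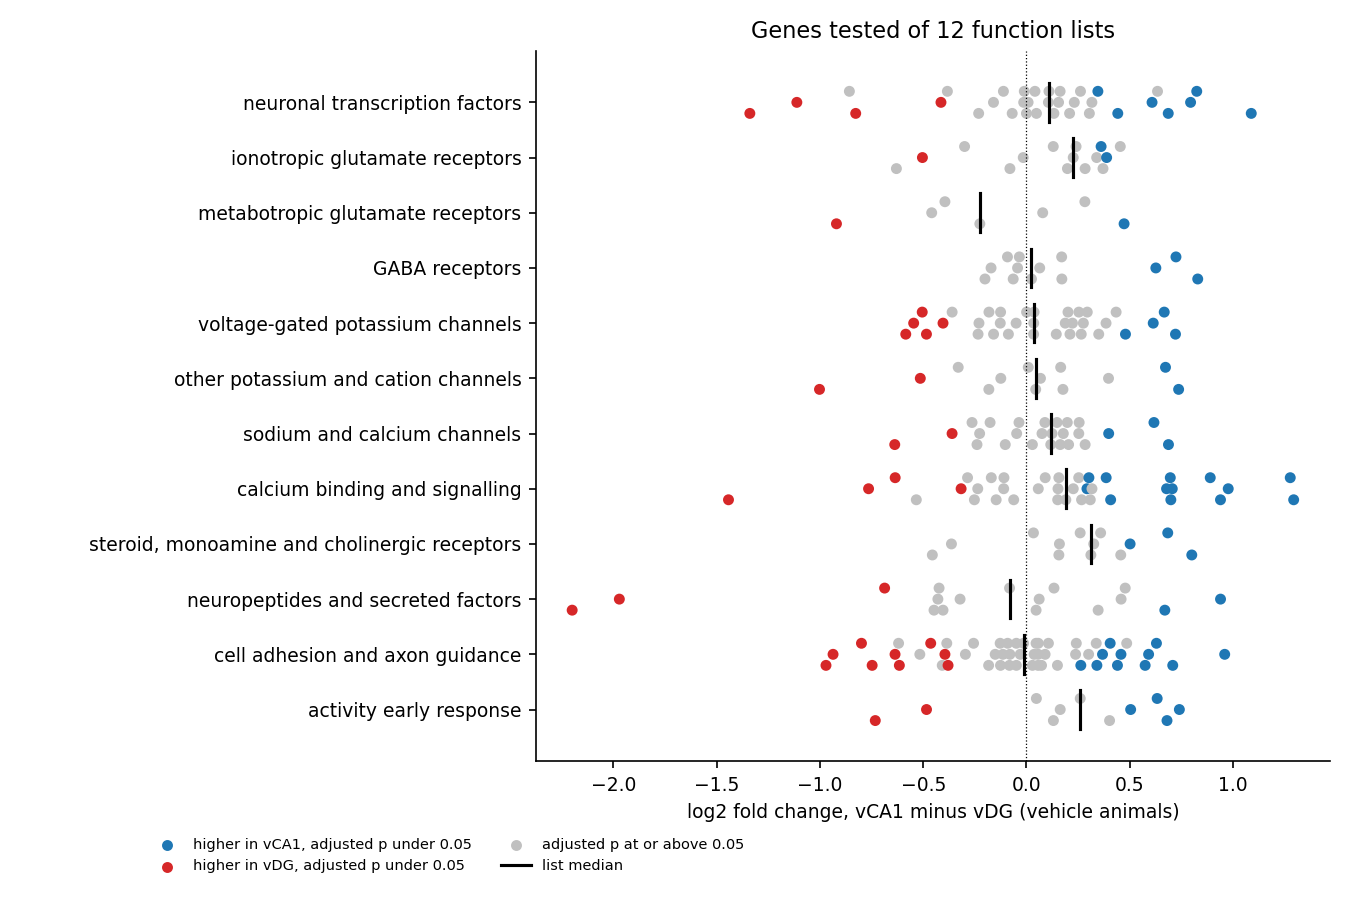
Log2 fold change of vCA1 over vDG in vehicle animals (x axis) for every tested gene of 12 function lists (rows), with called genes in colour, others in grey and a bar at each list's median. Calcium binding and signalling genes carry 13 calls toward vCA1 and 4 toward vDG, the 3 calls among GABA receptor genes all lie toward vCA1, and voltage-gated potassium channel genes are called on both sides.

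The same regions were then compared in the 15 dexamethasone animals, none of which entered the vehicle fit. There, 610 of 9218 genes tested (6.62%) were called, 337 (3.66%) higher in vCA1 and 273 (2.96%) higher in vDG. Of the 868 vehicle calls, 850 were tested again, 824 of them (96.9%) had the same direction and 351 were called in the same direction, against 69.4% with the same direction among 8101 genes not called in vehicle. The 351 genes are 40.4% of the vehicle calls and 57.5% of the dexamethasone calls. Over the 8951 genes tested in both, the fold changes had Pearson r = 0.73 and Spearman rho = 0.63, a correlation across genes, which are not independent replicates.

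The named vCA1 genes and the granule cell genes were followed into these animals. Of the 15 named vCA1 genes, 13 were tested in dexamethasone animals and all 13 were called, with Vxn at 1.41, Fibcd1 at 1.40 and Fezf2 at 1.34. Spink8 was tested there and called at 1.97 (adjusted p = 2.02e-04). Of the 9 called granule cell genes, only Plk5 was called again, at −0.87 (adjusted p = 0.0316). Prox1 had 178 ± 109 CPM in vCA1 and 229 ± 133 CPM in vDG of dexamethasone animals (SD, n = 15 each), a log2 fold change of −0.35 (adjusted p = 0.510). C1ql2 was at −0.65 (adjusted p = 0.241), Rfx3 at −0.13 and Npnt at 0.01. Wfs1, the CA1 gene that was higher in vDG of vehicle animals, was at −0.75 (adjusted p = 0.106). Of the 15 named vDG genes, 11 were tested and 9 were called, among them Ptgds at −2.42 and Col1a2 at −2.17. Markers of other cells were also called higher in vDG there, where 2.96% of all genes tested were called in that direction. These were all 4 blood genes tested (Hbb-bs at −0.55, Hbb-bt at −0.56, Hba-a1 at −0.65 and Hba-a2 at −0.73), 2 of 6 endothelial genes (Itm2a at −0.60 and Pecam1 at −0.53), 2 of 4 vessel wall genes (Acta2 at −1.29 and Vtn at −1.10) and 1 of 9 oligodendrocyte genes (Mag at −0.74). The summed blood level was 92.0 to 711 CPM in vCA1 and 81.1 to 643.7 CPM in vDG, higher in vDG in 13 of 15 animals, and the summed meningeal level was higher in vDG in 15 of 15. In vehicle animals none of the blood, endothelial or oligodendrocyte genes was called, and the part of these cells in the dexamethasone contrast was not tested.

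The difference of the contrast between arms was itself tested, and no gene of 10032 was called (386 had an unadjusted p under 0.05, and DESeq2 called none with 253). The 5 smallest p-values belonged to Ptgfrn, Tiam2, Lsg1, Susd6 and Ogn, all with an adjusted p of 0.768. With no filter on low counts 34 genes were called, among them Tiam2 (adjusted p = 0.00573), Ogn (0.00967) and Ptgfrn (0.0171). A call in vehicle and none with dexamethasone, as for Prox1, therefore does not show that the arms differ.

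**Figure D4:**
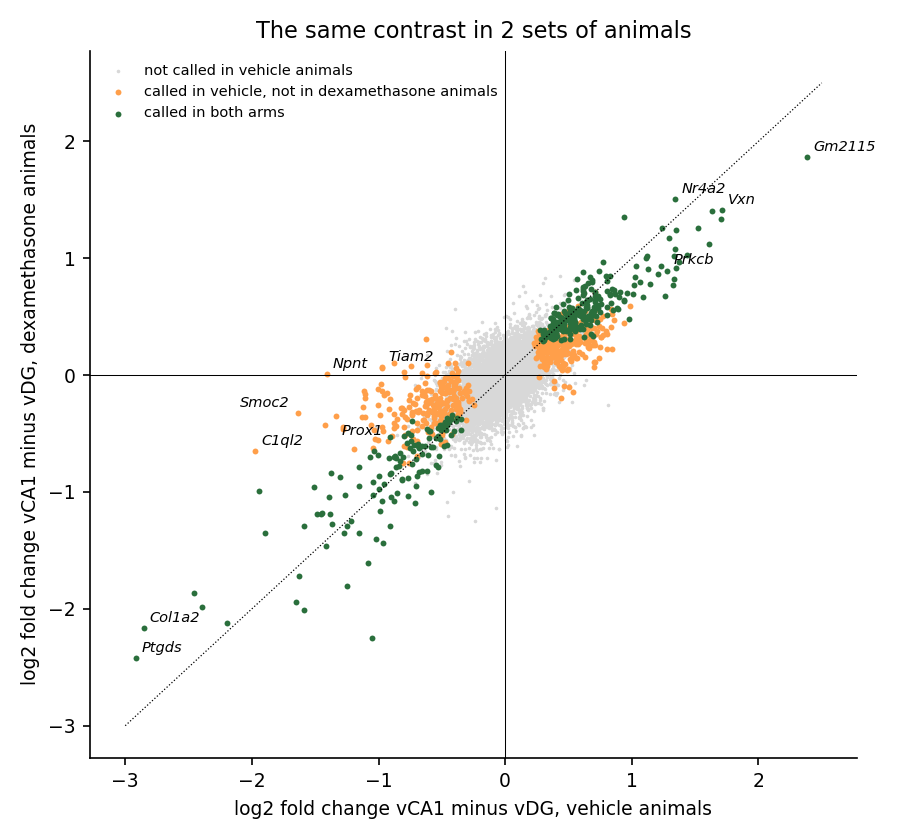
Log2 fold change of vCA1 over vDG in vehicle animals (x axis, 14 animals) against dexamethasone animals (y axis, 15 animals) for genes tested in both, with genes called in vehicle alone and in both arms in colour and a dotted line of equal change. Of the 850 vehicle calls shown, 824 have the same sign in both arms, and Prox1 and C1ql2 lie nearer to 0 in the dexamethasone animals.

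The ventral contrast was last set beside the dorsal one in vehicle animals. In the libraries labelled dCA1 and dDG, 120 of 8573 genes (1.4%) were called, 56 (0.653%) higher in dCA1 and 64 (0.747%) higher in dDG. Without the animal block the count was 54. Genes of the granule cell and CA1 lists did not separate the dorsal libraries. None of 21 tested granule cell genes was called there (median 0.22), and of 16 CA1 genes 2 were called, both higher in dDG (Dcn and Etv1; median −0.13). Prox1 had 506 ± 136 CPM in dCA1 and 448 ± 243 CPM in dDG (SD, n = 15 each), so that the libraries labelled dCA1 carried this granule cell gene at the level of those labelled dDG. Of 9 CA2 and CA3 genes, 4 were called, all higher in dCA1 (Bok at 1.07, Grik4 at 0.81, Nectin3 at 0.65 and Nptx1 at 0.50), and their summed level was higher in dCA1 in 13 of 15 animals. All 3 choroid plexus genes tested (Ttr at −2.44, Enpp2 at −1.79 and Kl at −1.25) and both meningeal genes were called higher in dDG. The summed choroid plexus level had a median of 318 CPM in dCA1 (highest 3025) and 2055 CPM in dDG (highest 16071), higher in dDG in 14 of 15 animals. Whether the dorsal punches hold a mixture of layers or carry labels other than their tissue was not tested, and nor was the part of CA3, choroid plexus or meningeal tissue. The dorsal values are given as the labels name them, and each ventral minus dorsal difference below carries this limit.

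In 1 fit over the 14 animals with all 4 regions, the ventral contrast differed from the dorsal one for 238 of 9565 genes (2.49%), 112 (1.17%) toward CA1 and 126 (1.32%) toward the dentate gyrus. Of the 864 ventral calls tested, 179 differed. Of 21 granule cell genes, 10 differed, all with a ventral contrast further toward the dentate gyrus, and 6 of 17 CA1 genes differed, all further toward CA1. The ventral minus dorsal difference in log2 fold change was −1.59 for Prox1 (adjusted p = 0.00117), −2.36 for C1ql2 (adjusted p = 1.23e-04), 2.28 for Ccn3 (adjusted p = 0.00105) and 1.69 for Man1a (adjusted p = 0.00283). For Fibcd1 it was 1.34 and for Mpped1 1.33, neither called (adjusted p = 0.120 and 0.0577). The smallest p-values were those of Vxn (1.96, adjusted p = 1.46e-07), Gm2115 (2.78, adjusted p = 3.66e-06), Ogn (−3.23, adjusted p = 7.61e-06), Ndst4 (2.14) and Foxo1 (−1.04, adjusted p = 6.93e-05). Foxo1, a transcription factor under insulin control, stood at 47.5 ± 6.15 CPM in vCA1 and 88.5 ± 19.1 CPM in vDG and was higher in vDG in 14 of 14 animals.

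Cadps2 was called in opposite directions, at 1.32 ventrally and −0.66 dorsally (adjusted p = 0.00245). The meningeal genes among the named vDG genes kept their direction dorsally, with Ptgds at −1.29, Col1a2 at −1.59 and Igf2 at −1.16. The ventral minus dorsal difference was −1.73 for Ptgds (adjusted p = 3.76e-04), −1.35 for Col1a2 (adjusted p = 0.0372, and 0.172 without the animal block, 0.543 without animals with a RIN under 5 and 0.0561 with only the libraries in the authors' tables) and −1.05 for Igf2, which was not called (adjusted p = 0.121). Of 12 named vDG genes tested dorsally, 8 were called in the same direction. The count of 238 was 18 without the animals that had a RIN under 5 in any of the 4 libraries, a fit of 32 libraries in which 237 of the 237 genes tested kept their direction.

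**Figure D5:**
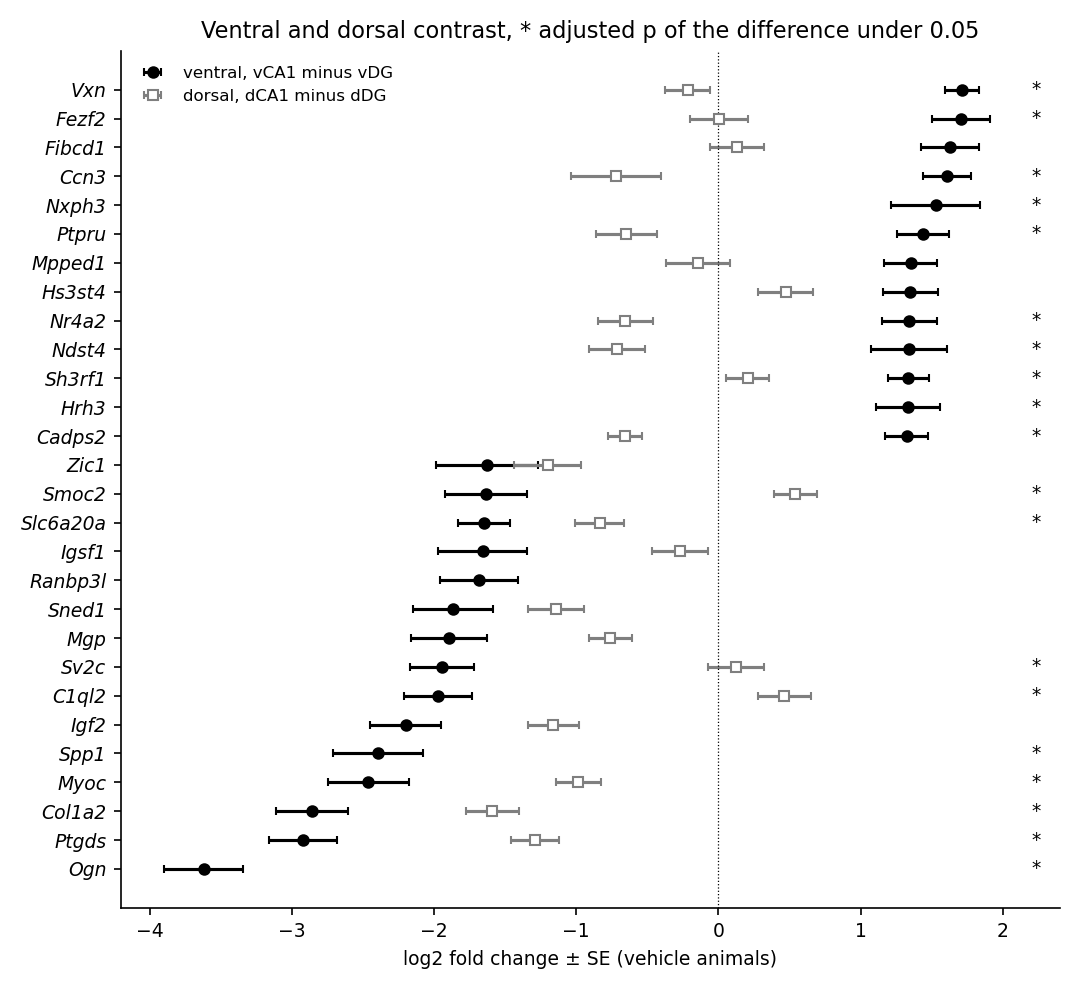
Log2 fold change of CA1 over dentate gyrus in ventral and in dorsal punches of vehicle animals (x axis) for the 28 named genes tested for the difference (rows; points are estimates, bars SE, and 5 genes have no dorsal estimate), with an asterisk where the difference between them has an adjusted p under 0.05. Named vCA1 genes such as Vxn and Ccn3 lie right of 0 ventrally and near or left of 0 dorsally, while Ptgds and Col1a2 lie left of 0 in both.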

How the data were processed

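The raw counts per gene (27998 genes, 235 libraries) were deposited by the authors as 1 table made with featureCounts, per the file headers. Libraries were made with a 3' end kit with molecular identifiers (QuantSeq forward) and read from 1 end, per the labels' protocols. The build mm10 and STAR 2.6.0a, UMI-tools 0.5.4 and featureCounts 1.6.4 are given in the submitters' processing notes, without roles. The deposited per-region tables of log2 values were used only for which libraries they list. Groups came from sample titles. The string that selects the vehicle columns, with its leading joining mark, occurs in 21 of the 29 columns, because the other 8 lack a run prefix, so columns were matched to samples by their labels.

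Genes passing filterByExpr were scaled by TMM and tested with edgeR 4.0.16 (R 4.3.3, limma 3.58.1) quasi-likelihood fits. Benjamini-Hochberg adjustment ran over all genes tested, with a threshold of 0.05 and the animal as a block. The vDG library of the animal with no vCA1 library is in the levels, not in the fit. Log2 fold changes are vCA1 minus vDG, and their SE is the absolute value over the root of F. Levels are TMM-scaled CPM. Floors cover counting error only. The pairing comes from the labels. Deviations of the punches of 1 animal correlated at −0.18 to 0.30 (median 0.07), with 5 of 14 over 0.1. Punches of different animals had a median of −0.01, and 0 of the 14 pairs correlated best within their own animal. The pairing therefore rests on the labels alone. No library was a copy of another (chi-square over degrees of freedom at least 1.49 within groups). The scripts were tested on simulated data. DESeq2 1.42.0 served as an alternative. Tables and figures were made in Python 3.11.15 (matplotlib 3.10.9, numpy 2.4.6, pandas 2.3.3, scipy 1.17.1). Symbols came from GENCODE M21, which shares 27645 of the identifiers. Gene positions and exon overlaps came from the exon positions given with the deposited counts.

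Members, lists and rules were chosen with earlier results of these data known. Named genes are those of the lists, the 15 with the largest change in each direction (at least 10 CPM in the higher region, same direction in at least 12 animals, no model-number symbol), and the 5 with the smallest p in each test of a difference. Alternatives were other scalings, filters and tests, no replicate block, plate or RIN terms, and fewer libraries. Some listed genes are not reported here by name. Plates 1 to 3 only, the meningeal covariate and leaving out each animal were added after the data were seen.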

Additional observations from a re-analysis of the deposited data

Results flagged for a closer look

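For 54 of the reported listed or named genes called between vCA1 and vDG in vehicle animals, or named for the smallest p, the contrast between libraries labelled CA1 and dentate gyrus differed between ventral and dorsal punches (edgeR quasi-likelihood test of the difference, adjusted p under 0.05). The values are the ventral minus the dorsal log2 fold change. The dorsal libraries are taken as labelled, but Prox1 stood at 506 ± 136 CPM in those labelled dCA1 and 448 ± 243 CPM in those labelled dDG, and none of 21 granule cell genes was called between them. Whether those punches mix layers or carry other labels was not tested. Without animals with a RIN under 5 (32 libraries), 43 of the 54 calls were lost and no sign turned. The fit without the animal block lost 11, and the fit with only the libraries in the authors' tables also lost 11, with Bcl11b, Col1a2, Foxp1, Lmo3, Nr4a1, Nrp2, Plk5 and Slc6a20a lost under both. Among genes with a difference toward CA1, those of the CA1 list were Ccn3 at 2.28, Man1a at 1.69, Etv1 at 1.39 and Lmo3 at 0.73. Other named vCA1 genes were Nxph3 at 3.03, Gm2115 at 2.78, Hrh3 at 2.16, Ptpru at 2.15, Ndst4 at 2.14, Nr4a2 at 1.97, Vxn at 1.96, Cadps2 at 1.86, Fezf2 at 1.71 and Sh3rf1 at 1.24. Calcium signalling genes were Prkcb at 1.26, Rasgrp1 at 1.22, Itpr1 at 0.89 and Camkv at 0.64. Receptors were Gabra3 at 1.54 and Gabrg3 at 1.08. The transcription factors Bcl11b and Foxp1 had 0.81 and 0.49, the neuropeptide Nts 3.11, the adhesion genes Adgrl2 1.55, Flrt1 0.91 and Lrrtm2 0.61, and the activity genes Nr4a1 0.96 and Homer1 0.72.

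Among genes with a difference toward the dentate gyrus, those of the granule cell list were C1ql2 at −2.36, Npnt at −1.74, Prox1 at −1.59, Rfx3 at −1.47, Plk5 at −1.42 and Tiam1 at −0.96. Other named vDG genes were Ogn at −3.23, Smoc2 at −2.13, Sv2c at −2.13, Spp1 at −2.02, Ptgds at −1.73, Myoc at −1.51, Col1a2 at −1.35 and Slc6a20a at −0.94. Tiam2 had −1.21 and Foxo1 −1.04. Receptors, channels and calcium sensors were Grik4 at −1.30, Kcnj2 at −1.19, Hpcal1 at −1.04 and Cacna1c at −0.95. Adhesion genes were Cdh9 at −1.68, Sema5a at −1.11, Nectin1 at −1.05, Flrt3 at −0.91 and Nrp2 at −0.78, and the activity gene Jun had −0.94.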

How the results depend on the processing

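For vCA1 against vDG in vehicle animals, the 868 calls became 1442 with no filter on low counts and 8 with the meningeal covariate. They became 134 with 12 of the 21 libraries of plates 1 to 3, those of animals with both regions there (840 of 843 genes tested kept their direction). The fit of plates 1 to 3 had fewer libraries, and the covariate's levels did not overlap between regions. The cause of these changes was not tested. Without the replicate block there were 861 calls, 752 of them the same genes, and leaving out 1 animal gave 678 (replicate 4) to 1001 (replicate 15). DESeq2 called 756 genes, and the other scalings, the stricter filter, the plate and RIN terms and the removal of animals with a RIN under 5 gave 596 to 1070. All 30 genes named for their size stayed called under DESeq2 or the other scalings; 29 did without the block, 18 of 24 tested in plates 1 to 3, and 2 with the meningeal covariate. Under that covariate the sign turned for Acta2 (1.36), Amigo2 (0.21), Bcl11b (−0.0074), Cacnb1 (−0.11), Epha5 (−0.11), Gjb6 (0.12), Gria3 (−0.12), Igf2 (0.16, itself part of the covariate), Igsf1 (0.46), Itpka (−0.0662), Lmo3 (−0.0435), Mgp (0.35), Npy (−0.0777), Nrgn (−0.12), Plxna2 (−0.0595), Pvalb (0.45), Ranbp3l (0.30), Sned1 (0.16), Vtn (0.38) and Zic1 (1.03), none of them called. Leaving out 1 animal ended the calls of 31 genes, with an adjusted p of up to 0.111. Of these, Gria3, Grik4 and Kcnip4 depended on a single animal.

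The 610 calls in dexamethasone animals became 1200 with no filter, 403 with at least 10 counts in every library and 378 with only the libraries in the authors' tables. With no filter, 34 genes differed between arms. The 238 differences between the ventral and dorsal contrasts became 443 with no filter, 100 with at least 10 counts in every library, 186 without the replicate block and 18 without animals with a RIN under 5. The 120 dorsal calls became 485, 66 and 54 under the first 3 of these settings, and DESeq2 put 59.1% of its 132 dorsal calls higher in dCA1 against 46.7%. Depth limited the genes that could be read, since 3 counts correspond to 2.58 to 9.98 CPM.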
